A study of Homo sapiens with 12 samples.

Results

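The transcripts that encode the writers, erasers and readers of DNA methylation were followed in MiaPaca2 cells, a human pancreatic ductal adenocarcinoma line, under epigenetic priming and calcipotriol. The set was a list of 9 genes chosen by name: the methyltransferases DNMT1, DNMT3A and DNMT3B, the maintenance partner UHRF1, the oxidases TET1, TET2 and TET3, the reader MBD2 and the glycosylase TDG. Of these, 8 matched an identifier among the 63677 in the count tables and all 8 passed the filter on low counts, while UHRF1 was not analysed here. RNA-seq was available for 12 libraries, 3 in each of 4 groups, all of the same line after 24 h of treatment. Con received the vehicle DMSO. CPT received calcipotriol, a Vitamin D analog, at 1 µM. GTA+5-Aza received the acetate precursor glyceryl triacetate at 2 mM together with the methyltransferase inhibitor 5-Aza-2′-deoxycytidine at 1 µM, a combination called epigenetic priming. CPT+GTA+5-Aza received all 3 agents. GTA and 5-Aza were always given together in these libraries, so their separate effects cannot be told apart, and each group is 1 line at 1 dose and 1 time. The labels give no culture of origin for the replicates. The study's methods give n = 3 per group for the sequenced RNA. They call the samples of an experiment independent, without describing separate cultures for these libraries. The p-values therefore set group differences against the spread between these libraries, which may be technical.

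DNA methylation is written by DNMT3A and DNMT3B on unmethylated CpG sites and is copied after replication by DNMT1, which UHRF1 recruits to hemimethylated DNA. The TET enzymes oxidise 5-methylcytosine, TDG excises the more oxidised bases, and MBD2 binds methylated CpG and brings in the NuRD repressor complex. 5-Aza is taken up, phosphorylated and built into DNA, where it traps the methyltransferase proteins covalently and leads to loss of the DNMT1 protein. Only transcripts were measured in these libraries, and neither the proteins nor DNA methylation.

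The starts of 4 of these genes are shown because CpG is the site that the encoded proteins write, copy or read, and because they take in DNMT3B, which moved most clearly under priming, the maintenance enzyme DNMT1, the reader MBD2 and the glycosylase TDG. Each sequence is the 250 bases before a start, in GRCh38, 5′ to 3′ on the strand of the gene, with every CpG in capitals. The windows come from RefSeq. They lie at chr20:32779602-32779851 (+) for DNMT3B, at chr19:10194954-10195203 (-) for DNMT1, at chr18:54224670-54224919 (-) for MBD2 and at chr12:103965622-103965871 (+) for TDG.
DNMT3B, RefSeq start: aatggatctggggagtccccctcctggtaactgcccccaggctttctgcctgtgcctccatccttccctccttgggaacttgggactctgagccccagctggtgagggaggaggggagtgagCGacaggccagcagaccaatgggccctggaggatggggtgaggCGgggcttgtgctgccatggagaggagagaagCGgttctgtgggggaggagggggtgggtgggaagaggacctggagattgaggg
DNMT1, RefSeq start: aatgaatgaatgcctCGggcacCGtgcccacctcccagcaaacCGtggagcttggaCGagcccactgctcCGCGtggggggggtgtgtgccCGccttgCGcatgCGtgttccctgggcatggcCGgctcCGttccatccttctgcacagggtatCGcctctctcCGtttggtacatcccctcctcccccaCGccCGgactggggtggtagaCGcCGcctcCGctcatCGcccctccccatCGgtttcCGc
MBD2, RefSeq start: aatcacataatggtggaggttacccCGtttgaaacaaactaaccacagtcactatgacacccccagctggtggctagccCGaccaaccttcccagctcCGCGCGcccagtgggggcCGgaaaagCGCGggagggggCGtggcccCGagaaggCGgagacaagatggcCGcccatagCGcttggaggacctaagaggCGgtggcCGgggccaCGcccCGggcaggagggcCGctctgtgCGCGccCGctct
TDG, RefSeq start: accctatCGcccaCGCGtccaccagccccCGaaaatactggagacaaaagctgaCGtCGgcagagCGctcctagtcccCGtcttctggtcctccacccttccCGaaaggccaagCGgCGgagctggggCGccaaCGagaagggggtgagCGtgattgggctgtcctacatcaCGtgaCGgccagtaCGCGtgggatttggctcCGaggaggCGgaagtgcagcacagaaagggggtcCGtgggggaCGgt

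All 8 genes had at least 1 RefSeq window, 17 in all. They held 3 to 37 CpG (motif CG, which reads the same on both strands), with a median of 21. The median over all 35114 RefSeq windows of this length was 11. DNMT3A had the most windows, and some windows of DNMT3A and of TET1 overlap, so some CpG were counted more than once. The median of 21 is thus over windows and not over genes. The RefSeq window of DNMT3B held 3 CpG, and 77.1% of all RefSeq windows held at least as many. DNMT1 and MBD2 had 21 CpG each (30.2% of RefSeq windows) and TDG had 22 (28.0%). The windows of DNMT3B and DNMT1 lie inside their annotated genes, which begin at chr20:32762385 and chr19:10231286 in GENCODE. Their CpG counts therefore do not describe the outermost starts of these genes. Genes can have further starts, and counts per gene do not tell from which start the transcripts came.

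Levels were compared between genes as CPM per kilobase of exon, with CPM scaled by TMM. The maintenance enzyme DNMT1 was the most abundant of the 8 transcripts in each of the 4 groups, at 29.9 ± 0.999 CPM per kb in Con (SD, n = 3). TDG followed at 10.8 ± 0.442, then TET3 at 4.30 ± 0.300 and DNMT3B at 3.78 ± 0.189 CPM per kb. The lowest levels in Con were those of TET2 at 1.47 ± 0.0639, TET1 at 1.17 ± 0.149, DNMT3A at 0.881 ± 0.233 and MBD2 at 0.821 ± 0.196 CPM per kb. In Con, TET3 and DNMT3B overlapped between libraries, and so did TET1, DNMT3A and MBD2, each with its neighbour in that order. The order of TET3 and DNMT3B per kb changed with priming. In GTA+5-Aza DNMT3B stood at 5.30 ± 0.376 and TET3 at 3.92 ± 0.163 CPM per kb. In CPT+GTA+5-Aza they stood at 4.76 ± 0.342 and 3.99 ± 0.307, without overlap in either primed group. That crossing rests on the division by exon length, the union of all annotated exons (12943 bases for TET3 and 6876 for DNMT3B). In CPM, TET3 lay above DNMT3B in all 4 groups, at 55.6 against 26.0 in Con and 50.8 against 36.4 in GTA+5-Aza. The de novo enzyme DNMT3A lay below DNMT3B in every group. The 4 least abundant genes per kb overlapped with their neighbours in both primed groups. DNMT1 shares 83 bases of exon with S1PR2, TET3 390 bases and TDG 168 bases with a long noncoding RNA each, at most 3.44% of their exon length, and reads of DNMT3A, TET1 and TDG could also be split with their pseudogenes.

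**Figure D1:**
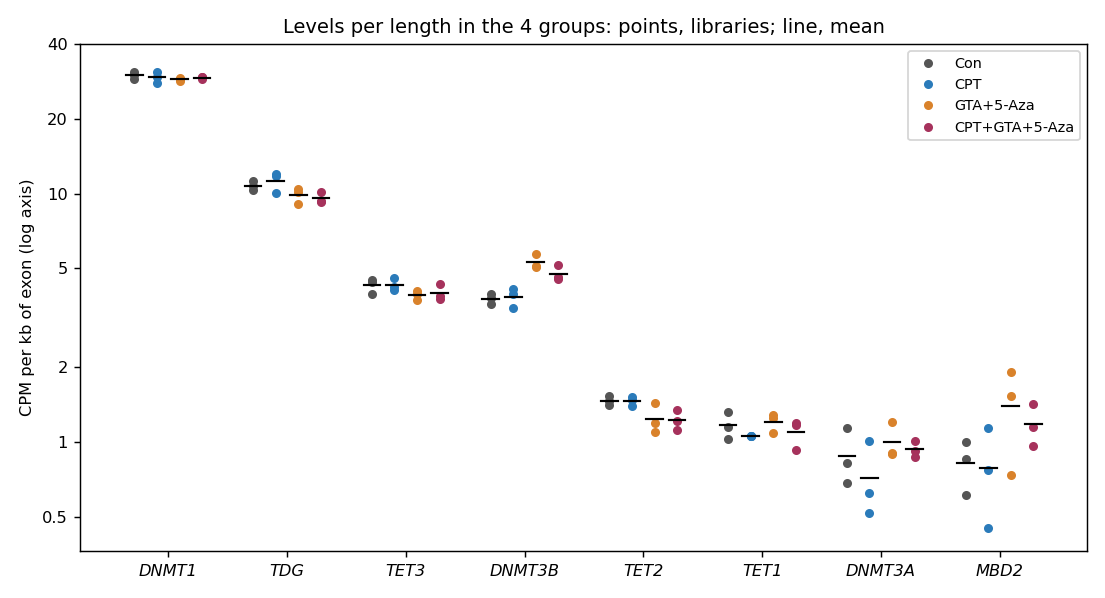
Levels of the 8 transcripts as CPM per kb of exon on a log axis, in the 4 groups; points are libraries and lines are means. DNMT1 sits near 29 in every group, and DNMT3B lies above TET3 without overlap in the primed groups only.

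The first comparison asked what priming did to these transcripts in cells that received no CPT. DNMT3B was upregulated in GTA+5-Aza against Con, and none of the other 7 genes passed the test. DNMT3B had 26.0, 24.6 and 27.2 CPM in the 3 Con libraries and 39.4, 34.9 and 35.1 CPM in the 3 GTA+5-Aza libraries. Every primed library lay above every Con library, as in 18.1% of all genes tested. In bulk libraries a level per cell and the share of cells that hold the transcript cannot be told apart. The mean was 26.0 ± 1.30 CPM in Con and 36.4 ± 2.58 CPM in GTA+5-Aza (SD, n = 3), a log2 fold change of 0.49 ± 0.104 (SE) or 1.40-fold, and the quasi-likelihood test of edgeR gave an adjusted p of 0.00146. This made 1 of 8 genes called, where 17.5% of the 17123 genes tested were called (9.95% higher and 7.53% lower), so the share among the 8 was near the background. The median log2 fold change of the 8 genes was -0.0042, against 0.0069 over all genes tested.

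**Figure D2:**
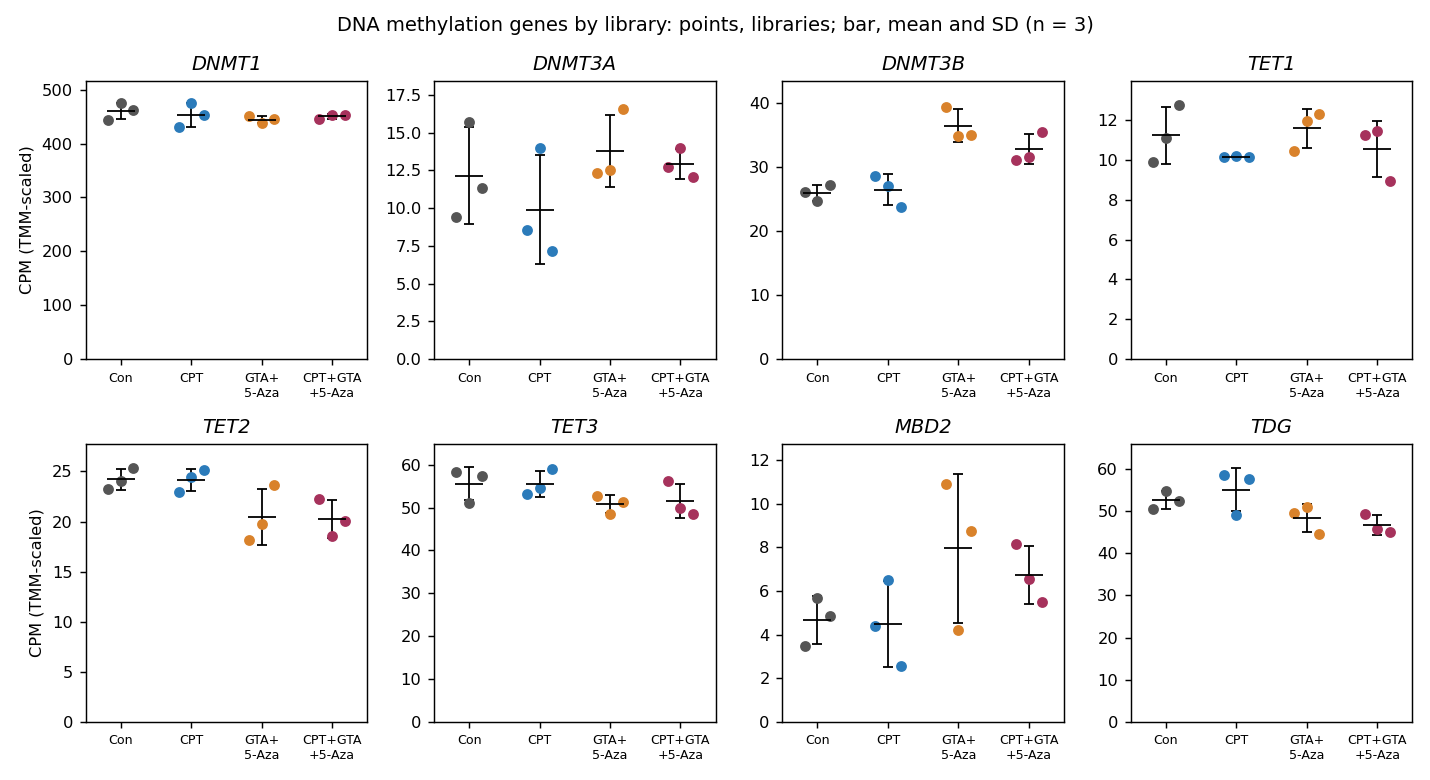
TMM-scaled CPM of each gene in each of the 12 libraries (points), with the group mean and SD (n = 3); each axis starts at 0. The 6 primed libraries of DNMT3B lie between 31.2 and 39.4 CPM and the 6 unprimed ones between 23.7 and 28.5, while DNMT1 overlaps across the groups.

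The same question was asked in cells that also received CPT. DNMT3B was again the 1 gene of 8 that was called, where 17.0% of all genes were called in CPT+GTA+5-Aza against CPT (9.57% higher and 7.39% lower). It had 28.5, 27.1 and 23.7 CPM in CPT and 31.2, 31.6 and 35.5 CPM in CPT+GTA+5-Aza, again without overlap (16.4% of all genes lay higher in this way). The group means were 26.4 ± 2.46 and 32.7 ± 2.35 CPM (SD, n = 3), a log2 fold change of 0.31 ± 0.105 (SE) or 1.24-fold, with an adjusted p of 0.0429 in edgeR's test. The difference in the priming effect with and without CPT was -0.18 on the log2 scale with a 95% interval from -0.48 to 0.12 and an unadjusted p of 0.227 in the same fit, so a smaller effect with CPT was not shown. The call in CPT-treated cells was close to its threshold. It was lost, with adjusted p between 0.0502 and 0.186, under 11 of 22 other ways of processing the counts that keep the threshold on adjusted p. Among these were the replicate block (0.0522) and leaving out 1 library (Con replicates 1 and 3, CPT replicate 3, GTA+5-Aza replicate 1 and each CPT+GTA+5-Aza replicate). Over all 22, with the call kept or lost, the log2 fold change lay between 0.23 and 0.36. In cells without CPT the call held under all 22, with the log2 fold change between 0.41 and 0.53. The study's rule was read here as a fold change above 1.5 with an unadjusted P under 0.05 against no change. Under it DNMT3B was called in neither comparison.

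**Figure D3:**
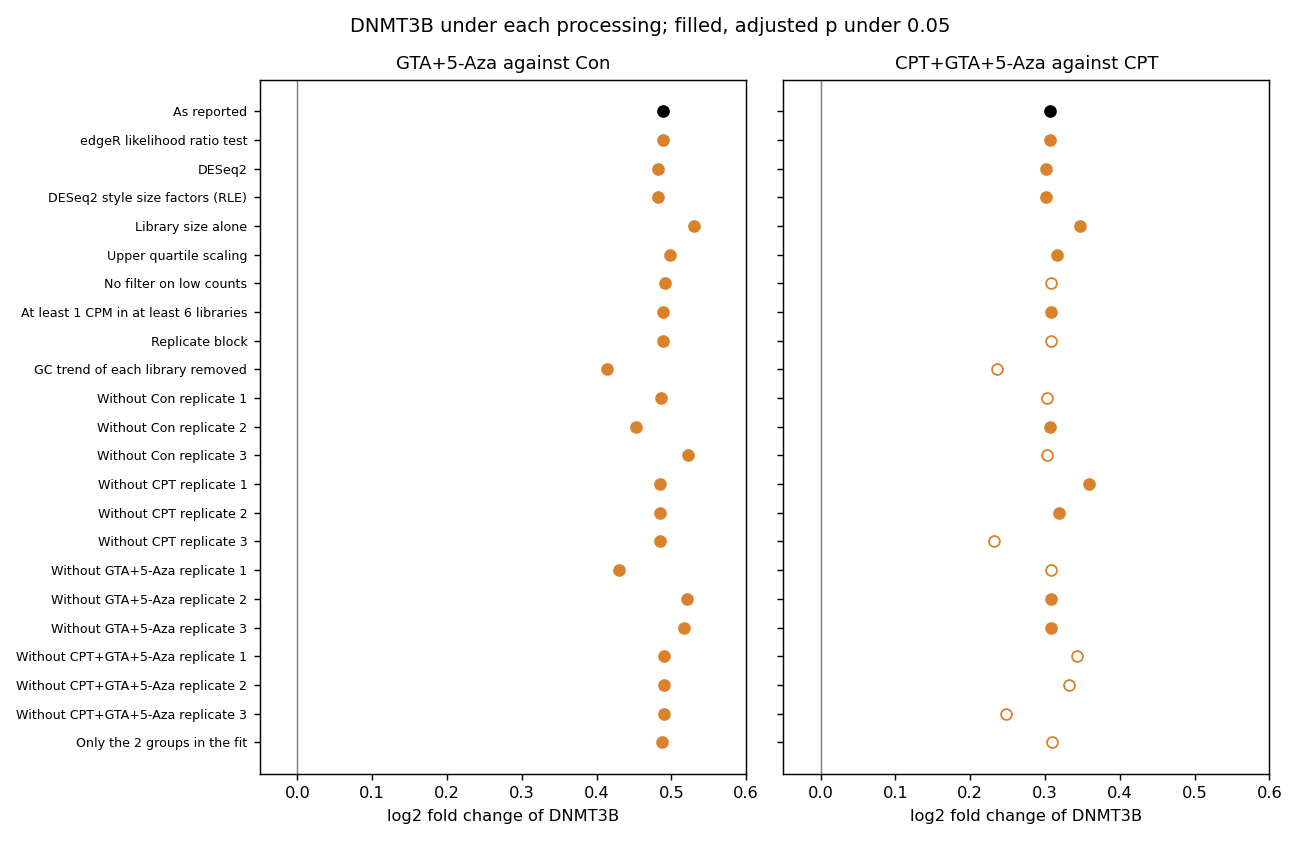
Log2 fold change of DNMT3B under each way of processing that keeps the threshold on adjusted p, for priming without CPT (left) and with CPT (right); filled points have an adjusted p under 0.05. Each of the points lies above 0, and the open points are all on the right.

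Libraries also differed in how their counts depended on GC content, and that difference moved with priming. Taken as the median log2 level of the 10% of genes richest in GC minus that of the 10% poorest in GC, each relative to the mean of all libraries, it was -0.24, 0.02 and -0.21 in Con and -0.22, 0.14 and -0.34 in CPT. It was 0.14, -0.03 and 0.35 in GTA+5-Aza and 0.06, 0.23 and 0.13 in CPT+GTA+5-Aza. The primed libraries were thus mostly the higher ones, with overlap. DNMT3B lay at the 68.4th percentile of GC content among the genes tested, outside the richest 10%. This trend was removed from each library, a step chosen after seeing the data. The log2 fold change of DNMT3B was then 0.41 (adjusted p = 0.00245 in edgeR's test) without CPT and 0.24 (adjusted p = 0.0935) with CPT. Since the trend moved with priming, its removal can also take out a priming effect that runs with GC content. A technical trend and such an effect cannot be told apart here.

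Genes of mitosis moved with priming too. Of 20 such genes, 3 rose and 13 fell in GTA+5-Aza against Con, and 3 were higher and 12 lower in CPT+GTA+5-Aza against CPT, with median log2 fold changes of -0.21 and -0.20. These were 80% and 75% of the list, where 17.5% and 17.0% of all genes tested were called. Their summed level ran from 6463 to 7091 CPM in the 6 unprimed libraries and from 5930 to 6220 CPM in the 6 primed ones, without overlap. Of 26 genes of S phase, when DNMT1 is needed, 1 was higher and 3 lower without CPT and 2 were higher and 4 lower with CPT. These were 15.4% and 23.1% of the list, against the same background of 17.5% and 17.0%. In the mean of both priming comparisons, a contrast described below, 4 were higher and 10 lower (53.8%), where 30.9% of all genes were called. The summed level of the S phase genes ran from 4839 to 5079 CPM in the unprimed and from 4763 to 4924 CPM in the primed libraries. The part of the cell cycle genes in the levels of the 8 transcripts was not tested.

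DNMT1, the main target of 5-Aza at the protein level, differed little between groups as a transcript. It had 444, 475 and 462 CPM in Con, 430, 475 and 453 in CPT, 450, 438 and 445 in GTA+5-Aza, and 445, 453 and 453 in CPT+GTA+5-Aza. All 4 groups overlapped. The log2 difference with priming was -0.05, with a 95% interval from -0.15 to 0.05, without CPT and -0.0078, from -0.11 to 0.10, with CPT. With the GC trend removed, DNMT1 was called lower without CPT, by a small margin (log2 fold change -0.11, adjusted p = 0.0480 in edgeR's test), and had -0.07 (adjusted p = 0.254) with CPT. The depth behind these values was 7396 to 9960 counts of DNMT1 per library, the largest of the 8 genes.

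DNMT3A, the other de novo enzyme, varied widely within groups. It had 9.41, 15.7 and 11.3 CPM in Con and 8.58, 14.0 and 7.15 in CPT. In the primed groups it had 12.3, 12.5 and 16.5 CPM in GTA+5-Aza and 12.7, 14.0 and 12.1 in CPT+GTA+5-Aza, overlapping with the unprimed libraries. Its log2 fold change with priming was 0.18 (95% interval -0.23 to 0.59) without CPT and 0.38 (-0.04 to 0.79) with CPT, with adjusted p of 0.602 and 0.218 in edgeR's test. In each of the 4 groups the library with most DNMT3A was the one with the highest GC trend, and with the trend removed the log2 fold changes were 0.09 and 0.31. Without CPT replicate 2, DNMT3A was called higher with CPT (0.71, adjusted p = 0.00594).

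Of the oxidases, TET2 was the one with the clearest difference. It had 23.2, 24.1 and 25.3 CPM in Con and 18.2, 19.7 and 23.6 in GTA+5-Aza, so that 1 primed library reached into the Con range. It had 22.9, 24.4 and 25.1 CPM in CPT and 22.2, 18.5 and 20.02 in CPT+GTA+5-Aza, without overlap, as in 14.4% of all genes in that comparison for a lower level. The log2 fold changes were -0.24 ± 0.117 and -0.25 ± 0.118 (SE), with adjusted p of 0.169 and 0.152 in edgeR's test, so neither passed. TET3, the most abundant oxidase, had group means of 55.6 ± 3.88 CPM in Con, 55.6 ± 3.07 in CPT, 50.8 ± 2.11 in GTA+5-Aza and 51.6 ± 3.98 in CPT+GTA+5-Aza (SD, n = 3), with log2 fold changes of -0.13 and -0.11 that did not pass. TET1 stayed between 8.94 and 12.7 CPM in all 12 libraries, and its log2 fold changes of 0.04 and 0.06 had 95% intervals from -0.26 to 0.35 and from -0.26 to 0.37.

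The reader MBD2 and the glycosylase TDG lay on opposite sides. MBD2 had 3.47, 5.67 and 4.86 CPM in Con and 10.9, 4.21 and 8.75 in GTA+5-Aza, with GTA+5-Aza replicate 2 inside the Con range. It had 4.40, 6.49 and 2.57 CPM in CPT and 8.14, 6.53 and 5.51 in CPT+GTA+5-Aza, which also overlapped. Its log2 fold changes were 0.76 ± 0.292 and 0.58 ± 0.297 (SE), the largest in size of the 8 genes and the least precise, with adjusted p of 0.0737 and 0.196 in edgeR's test. MBD2 had only 47 to 204 counts per library. On leaving out 1 library its log2 fold change ran from 0.46 (without GTA+5-Aza replicate 1) to 1.07 (without GTA+5-Aza replicate 2) in cells without CPT, and from 0.30 (without CPT replicate 3) to 0.95 (without CPT replicate 2) in cells with CPT. It was called higher under 5 of 22 other ways of processing without CPT, namely with no filter (adjusted p = 0.00949 in edgeR's test), with only the groups compared (0.0193) and on leaving out CPT replicate 2 (0.0276), CPT replicate 3 (0.0321) or GTA+5-Aza replicate 2 (0.00835). With CPT it was called under 1 of 22, on leaving out CPT replicate 2 (adjusted p = 0.0200 in edgeR's test). In cells without CPT MBD2 was the 1 gene of 8 that met the study's rule, at 1.69-fold, as did 8.44% of all genes. TDG had 50.6, 54.9 and 52.5 CPM in Con and 49.5, 51.0 and 44.5 in GTA+5-Aza, a log2 fold change of -0.12 ± 0.0883 with an adjusted p of 0.387. It had 58.7, 49.2 and 57.6 CPM in CPT and 49.4, 45.7 and 45.2 in CPT+GTA+5-Aza, a log2 fold change of -0.24 ± 0.0888 with an adjusted p of 0.0660. Its libraries overlapped in both comparisons. With CPT it was called lower with DESeq2 (-0.24, adjusted p = 0.0430) and, in edgeR's test, on leaving out CPT replicate 2 (-0.32, adjusted p = 0.0101).

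Both priming comparisons use different libraries, and their mean was tested as 1 contrast, which was chosen after the separate results had been seen. Over the mean, DNMT3B and MBD2 were upregulated and TET2 and TDG downregulated, 4 of 8 genes, where 30.9% of all genes were called (16.8% higher and 14.0% lower). DNMT3B had a log2 fold change of 0.40 ± 0.0737 (SE) with an adjusted p of 1.42e-04 in edgeR's test. Its 6 primed libraries all lay above its 6 unprimed ones, as in 8.04% of all genes. MBD2 had 0.67 ± 0.208 (adjusted p = 0.0149), TET2 -0.25 ± 0.0833 (adjusted p = 0.0246) and TDG -0.18 ± 0.0626 (adjusted p = 0.0292), each with overlap between the primed and unprimed libraries. Of these 4, only DNMT3B kept its call under all 21 other ways of processing that keep the threshold on adjusted p, with adjusted p up to 9.62e-04, whereas MBD2 kept it under 19, TET2 under 15 and TDG under 13. Under the study's rule MBD2, at 1.59-fold, was the 1 gene called, and DNMT3B, at 1.32-fold, was not. TET2 and TDG lay at the 21.3th and 23.9th percentile of GC content, outside the poorest 10%. With the GC trend removed they had -0.18 (adjusted p = 0.0901) and -0.12 (adjusted p = 0.0978) and were no longer called, while MBD2 had 0.66 (adjusted p = 0.0105) and DNMT3B 0.33 (adjusted p = 4.46e-04). TET3 and DNMT1, at the 70.2th and 65.5th percentile of GC content, were then called lower, at -0.20 (adjusted p = 0.00841) and -0.09 (adjusted p = 0.0137). Whether the removal took out a technical trend or a priming effect cannot be told apart.

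**Figure D4:**
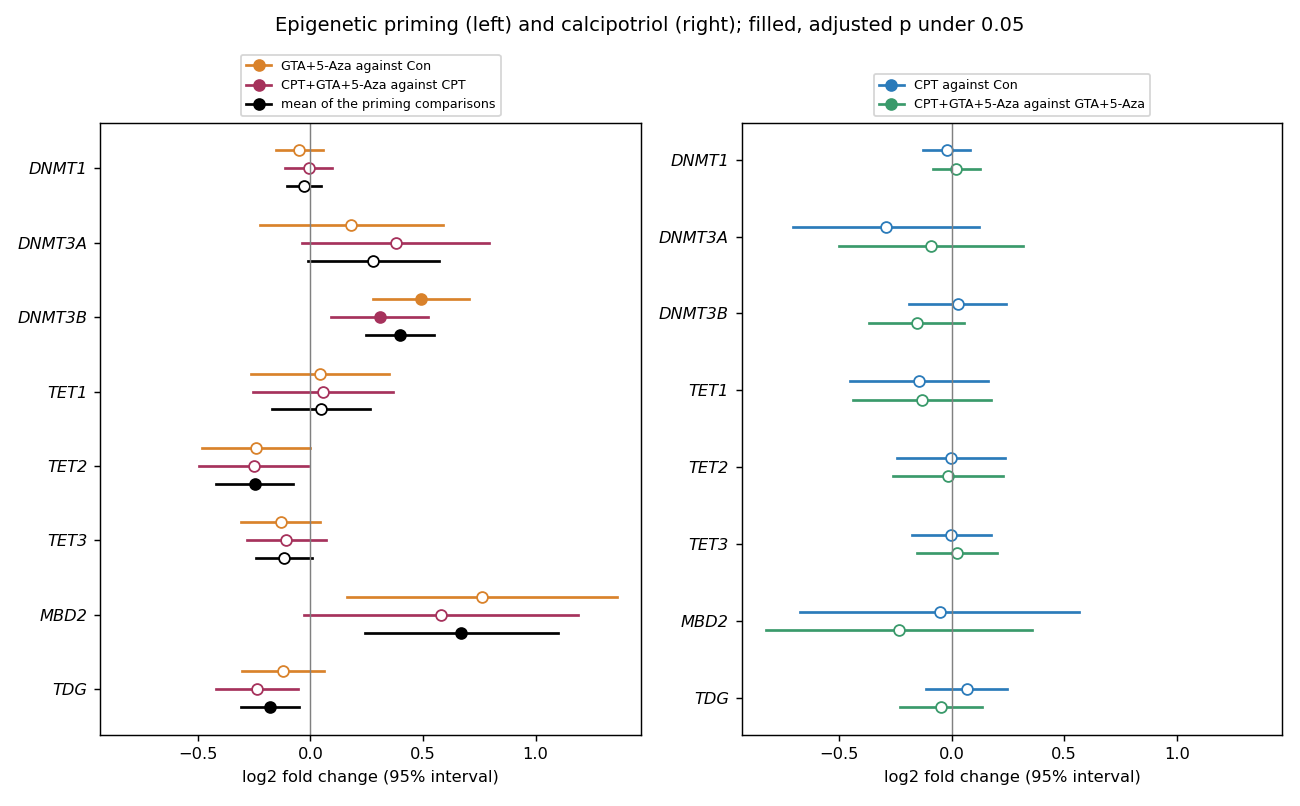
Log2 fold changes with 95% intervals for priming (left) and for CPT (right); filled points have an adjusted p under 0.05. DNMT3B is filled in each of the priming comparisons, MBD2, TET2 and TDG only in the mean of both, and no gene is filled for CPT.

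CPT itself moved none of the 8 transcripts past the test, in unprimed or in primed cells. In CPT against Con, 0 of 8 were called by edgeR's quasi-likelihood test and 0 by DESeq2, and 0 had an unadjusted p under 0.05, where 0% of all genes were called and 4.28% had such a p. In CPT+GTA+5-Aza against GTA+5-Aza the counts were again 0 of 8 by both tools and 0 at an unadjusted p under 0.05. There the quasi-likelihood test called 0% of all genes and gave such a p for 2.71%, and DESeq2 called 1 gene. The 95% intervals were narrow for the abundant genes and wide for the scarce ones. For DNMT1 the log2 difference was -0.02 (-0.13 to 0.08) in unprimed and 0.02 (-0.09 to 0.12) in primed cells. For DNMT3B it was 0.03 (-0.19 to 0.24) in unprimed and -0.16 (-0.37 to 0.06) in primed cells. For MBD2 it was -0.05 (-0.67 to 0.57) and -0.23 (-0.82 to 0.35), the widest intervals of the 8 genes. In the interaction of CPT and priming, 0 of 8 genes were called by edgeR or DESeq2 and 0 had an unadjusted p under 0.05. The quasi-likelihood test called 0% of all genes for it and gave such a p for 2.63%.

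The wider pathway was described with 5 lists of 86 genes, 79 of them tested. In GTA+5-Aza against Con 8 rose and 7 fell (18.99%), and in CPT+GTA+5-Aza against CPT 5 were higher and 5 lower (12.7%), close to the background of 17.5% and 17.0%. Among 16 tested writers and maintenance partners, 0 were higher and 2 lower in both comparisons, namely EHMT1 and SMCHD1. EHMT1, a methyltransferase of histone H3 lysine 9, fell from 102 ± 2.45 CPM in Con to 65.9 ± 5.95 in GTA+5-Aza and from 103 ± 3.21 in CPT to 59.7 ± 3.95 in CPT+GTA+5-Aza (SD, n = 3), log2 fold changes of -0.63 ± 0.0763 and -0.79 ± 0.0770 (SE) with adjusted p of 1.50e-06 and 6.90e-08 in edgeR's test. SMCHD1, a chromatin protein of X inactivation and repeat silencing, had -0.32 and -0.31 (adjusted p = 0.00211 and 0.00342).

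Among 20 tested readers and their partners, 2 were higher and 1 lower without CPT (15%) and 1 was higher and 0 lower with CPT (5%). CHD3, a helicase of the NuRD complex that MBD2 joins, rose from 91.4 ± 5.23 CPM in Con to 130.2 ± 8.29 in GTA+5-Aza and from 86.1 ± 4.10 in CPT to 128.4 ± 1.52 in CPT+GTA+5-Aza (SD, n = 3), log2 fold changes of 0.51 and 0.58 (adjusted p = 8.03e-06 and 1.57e-06 in edgeR's test). Among 19 tested genes of demethylation and base excision repair, 2 were higher and 0 lower without CPT (10.5%). With CPT 2 were higher and 1 lower (15.8%). GADD45A, a stress gene linked to active demethylation, rose by 0.45 ± 0.147 and 0.52 ± 0.147 (log2, SE), with adjusted p of 0.0314 and 0.0144. Of 13 tested genes of the methyl donor cycle, which supplies S-adenosylmethionine, 0 were higher in either comparison and 4 and 2 were lower. These were 30.8% and 15.4% of the list, where 17.5% and 17.0% of all genes tested were called (7.53% and 7.39% lower). AHCYL1, a relative of the enzyme that clears S-adenosylhomocysteine, was lower in both, at -0.21 and -0.23 (adjusted p = 0.0121 and 0.00626).

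The genes that take up and process deoxycytidine and its analogs were considered apart, since 5-Aza depends on them. Of 12 such genes 11 were tested, and 4 were higher and 0 lower without CPT, where their median log2 fold change was 0.22, and 2 were higher and 0 lower with CPT, where it was 0.18. The shares called were 36.4% without CPT, where 17.5% of all genes tested were called (9.95% higher), and 18.2% with CPT, close to the background of 17.0% (9.57% higher). DCK, the kinase that activates deoxycytidine analogs, rose from 18.8 ± 1.67 CPM in Con to 24.8 ± 1.51 in GTA+5-Aza (SD, n = 3), a log2 fold change of 0.40 ± 0.125 (SE) with an adjusted p of 0.0272 in edgeR's test, and had 0.19 (adjusted p = 0.348) with CPT. The nucleoside transporter SLC29A1 rose in both comparisons, by 0.27 ± 0.0628 and 0.18 ± 0.0628 (adjusted p = 0.00358 and 0.0456). Its relative SLC29A2 rose by 0.48 (adjusted p = 0.0162) without CPT and had 0.18 (adjusted p = 0.418) with CPT. The nucleotidase NT5C rose by 0.44 (adjusted p = 0.0479) and had 0.38 (adjusted p = 0.0886).

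CDA, the deaminase that inactivates cytidine analogs, was the other gene called with CPT. It had 2.96 ± 0.258 CPM in Con, 1.54 ± 0.606 in CPT, 3.45 ± 0.305 in GTA+5-Aza and 3.55 ± 0.440 in CPT+GTA+5-Aza (SD, n = 3), on 19 to 69 counts per library. Its log2 fold change with priming was 1.19 ± 0.297 (SE, adjusted p = 0.00596 in edgeR's test) with CPT and 0.22 ± 0.280 (adjusted p = 0.667) without, and the interaction of 0.97 had an unadjusted p of 0.0249 and did not pass the adjustment. The remaining genes of the list did not pass in either comparison: SAMHD1 had 0.22 and 0.27, DCTPP1 0.18 and 0.03, NME2 0.22 and 0.07, NME1 -0.06 and -0.05, CMPK1 -0.14 and -0.15 and DCTD -0.19 and -0.07, while SLC28A1 had at most 11 counts and was not tested.

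**Figure D5:**
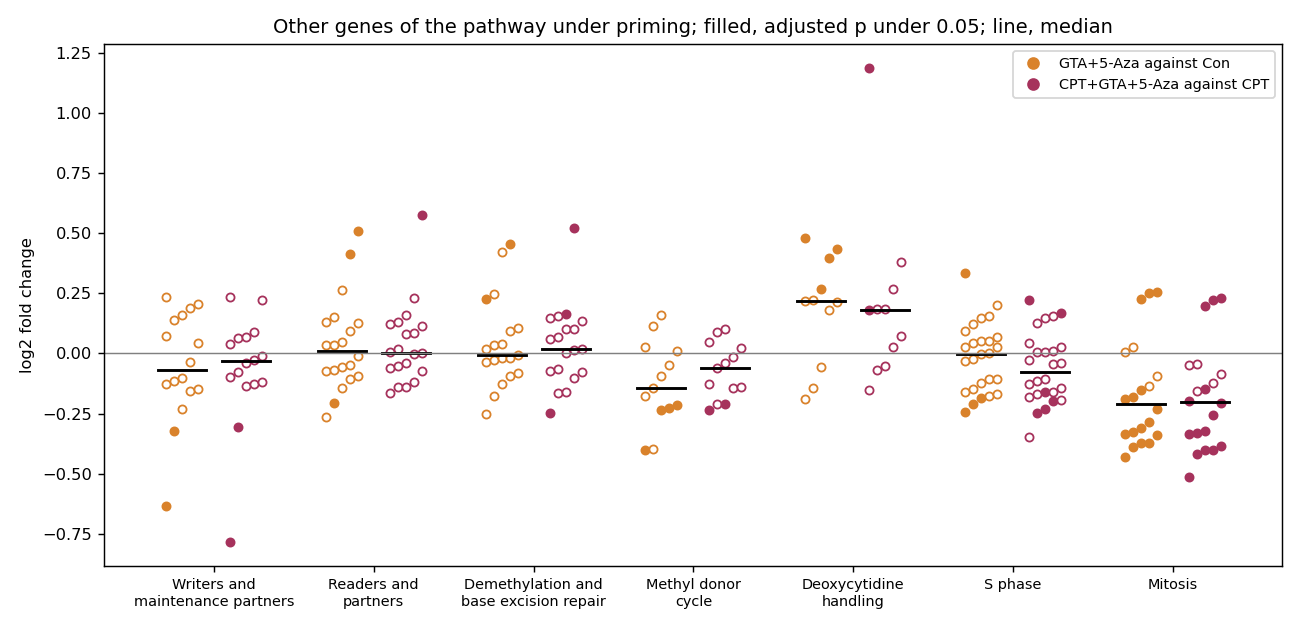
Log2 fold change of each tested gene of the pathway lists and of the cell cycle lists under priming without CPT and with CPT; filled points have an adjusted p under 0.05 and lines are medians. Most points of the mitosis list lie below 0 and most of the deoxycytidine list above 0.

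The genes whose levels followed those of DNMT1 and DNMT3B most closely over the 12 libraries were found by the root mean square difference of their centred log2 CPM, among 6241 well expressed genes. For DNMT3B they were IFFO2, OPTN, NFE2L3, DIRAS1 and PTGR1, at 0.08 to 0.09, against a median of 0.26 over all candidates. For DNMT1 they were EIF4G1, NONO, DDB1, ENO1 and CUTA, at 0.03 to 0.04, against a median of 0.12. Genes that hardly vary lie near DNMT1 by this measure, since DNMT1 hardly varied itself.

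Total counts ran from 16162490 to 21224665 per library. The labelled line was checked against markers. KRT8, KRT18 and VIM were abundant, KRT19 had 32.5 CPM in Con, and KRT7 had only 4 to 49 counts per library. EPCAM and CDH1 had at most 4 counts in any library. Of the 5 carcinoma line markers tested, 2 were called higher and 1, VIM, lower in each priming comparison. This was 60% of those tested, where 17.5% (without CPT) and 17.0% (with CPT) of all genes were called. The 2 higher ones were KRT7 and KRT19 without CPT and KRT18 and KRT19 with CPT. The summed level of 5 leukocyte markers was at most 1.09 CPM and that of 3 endothelial markers at most 0.624 CPM. The 5 acinar and islet markers were at 0. The summed level of 6 fibroblast markers was 689 to 944 CPM, nearly all of it from COL1A2, with LUM and FAP at 0. COL1A1, on 1 to 44 counts per library, and COL1A2 were called higher in both priming comparisons. The part of these markers in the levels of the 8 transcripts was not tested.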

How the data were processed

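The 12 RNA-seq libraries of MiaPaca2 cells were grouped by their labels. The authors used Trim Galore on the paired-end reads, HISAT2 2.2.1 against GRCh38 and HTSeq, and deposited raw counts for each gene without normalization. The annotation release and the strand setting were not given in the sources used here, and without strand, reads of overlapping genes on opposite strands cannot be told apart.

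The quasi-likelihood test of edgeR 4.0.16 (glmQLFit and glmQLFTest, with limma 3.58.1, under R 4.3.3) was run on the 17123 genes that filterByExpr kept. A single fit with TMM scaling held the 4 group means of all 12 libraries (common dispersion 0.0101, 18.3 prior degrees of freedom), with Benjamini-Hochberg adjustment over all genes tested and a threshold of 0.05. SE is the log2 fold change divided by the root of the F value. CPM used TMM-scaled library sizes, log2 CPM a prior count of 2, and exon lengths and symbols came from GENCODE release 44, where 52181 of 63677 identifiers matched. UHRF1 has an identifier there that is not among those analysed here. The 12 pairs of replicates within groups differed by more than sampling noise (chi-square per degree of freedom 3.93 to 17.5), so none was counted as a repeat. The fit was tested on simulated counts.

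The 8 genes and all gene lists were chosen with earlier results of these data known. Named besides them were list genes called the same way in both priming comparisons (up to 10 each way), all deoxycytidine genes, the 5 closest profiles of DNMT1 and of DNMT3B, and markers. DNMT3B was the gene with the smallest p. Alternatives were other tests (likelihood ratio, DESeq2 1.42.0), scalings and filters, only the groups compared, a replicate block and each library left out in turn. Also run were the study's rule and removal of the GC trend (loess, span 0.5). That rule was read as a fold change above 1.5 with an unadjusted P under 0.05 against no change. The paper's wording can also mean a P for the fold being above 1.5, which was not run. The GC removal and the mean of both priming comparisons were chosen after seeing the data.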

Additional observations from a re-analysis of the deposited data

How the results depend on the processing

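Of the 8 genes, the 1 call in GTA+5-Aza against Con became 2 with only the groups compared or with no filter on low counts, by MBD2, and with the GC trend removed, by DNMT1, and it was 1 to 2 on leaving out 1 library. It was 1 with the study's rule, which called MBD2 and not DNMT3B. In CPT+GTA+5-Aza against CPT the 1 call became 2 with DESeq2, by TDG, and 0 with no filter, with the replicate block, with the GC trend removed, with only the groups compared and with the study's rule, and it was 0 to 4 on leaving out 1 library, the 4 (DNMT3A, DNMT3B, MBD2 and TDG) without CPT replicate 2. Averaged over both, 4 calls became 2 with library size alone and 1 with the study's rule, by MBD2, and 2 to 5 on leaving out 1 library, with 2 without GTA+5-Aza replicate 1 or CPT+GTA+5-Aza replicate 2 and 5 without CPT replicate 2. Among the 8 genes the calls for CPT and for the interaction stayed at 0 under every alternative run.

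Over all genes, the calls without CPT, 2993 in all, were 1907 to 3648 on leaving out 1 library (1907 without GTA+5-Aza replicate 3 and 1983 without Con replicate 3) and 1446 with the study's rule. With CPT they were 1936 to 3765 and 1485. The averaged comparison had 1643 with the study's rule. CPT against Con had 4 with the likelihood ratio test, DESeq2 or the GC trend removed, 10 with no filter, 1 with the replicate block, 0 to 1 on leaving out 1 library and 313 with the study's rule. CPT+GTA+5-Aza against GTA+5-Aza had 3 with the likelihood ratio test, 1 with DESeq2, 4 with no filter, 2 with only the groups compared, 0 to 1 on leaving out 1 library and 172 with the study's rule. The interaction had 3 with the likelihood ratio test, 11 with no filter and 304 with the study's rule. The causes of these differences were not tested.

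The labels give each replicate only a number. The deviations of same-numbered libraries correlated at -0.0844 to 0.117 in 18 pairs, against a median of 0.00354 over the other pairs. The highest value, 0.117, was between Con replicate 2 and CPT replicate 2. Whether same-numbered libraries shared a culture or a batch cannot be told from these values. The replicate block took the 1 call of DNMT3B with CPT (adjusted p = 0.0522) and no other call among the 8 genes.

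Values near 0 that passed no test changed sign. In log2 fold change, DNMT1 with CPT was 0.032 with library size alone and 0.0012 with upper quartile scaling, and averaged it was 0.011 with library size alone. For CPT against Con, TET3 was 3.00e-05 with DESeq2 and 0.0012 with the replicate block, and TET2 was 0.0017 with the GC trend removed. On leaving out 1 library such values spanned the following ranges. For priming without CPT they were TET1 -0.046 to 0.14. For priming with CPT they were DNMT1 -0.049 to 0.023 and TET1 -0.0074 to 0.16. For CPT in unprimed cells they were TET3 -0.058 to 0.035, DNMT3B -0.030 to 0.098, MBD2 -0.43 to 0.22, TET2 -0.033 to 0.033 and DNMT1 -0.058 to 0.014. For CPT in primed cells they were MBD2 -0.54 to 0.063, TET3 -0.042 to 0.064, DNMT3A -0.17 to 0.056 and TET2 -0.095 to 0.097. For the interaction they were TET2 -0.091 to 0.10, TET3 -0.041 to 0.082, DNMT3A -0.030 to 0.53, TET1 -0.088 to 0.12 and MBD2 -0.49 to 0.19.

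The counts per library were 47 to 204 for MBD2 and 19 to 69 for CDA, which limits the precision of their values.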
